A study of Gallus gallus with 10 samples.

Results

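The genes described here mark the white blood cells of the hen's isthmus and the transport of antibodies across its lining: PTPRC, CD3E, CD4, CD8A, CSF1R, JCHAIN and PIGR. They were chosen by gene symbol, and the 7 symbols were carried by 9 of the 17617 rows of the expression table. CD8A had 3 rows, of which 2 had 0 reads in all 10 hens, so 7 rows, 1 for each gene, held reads. The isthmus is the oviduct segment that wraps the egg white in the fibrous eggshell membranes. White isthmus tissue was collected from 5 translucent hens and 5 opaque hens of a dwarf white population, which lay eggs with a translucent and with an opaque shell, and RNA was sequenced with 1 library for each hen. All 10 hens carry the label wild type beside their group, and no treatment was given. The labels give no age. The study states ages for the selection of the hens and the grading of their eggs, but none for the tissue sampling. The study describes the translucent hens taken for sequencing as having thinner eggshell membranes. For the eggs in the isthmus at sampling, however, it reports that membrane thickness did not differ significantly between the groups. The groups are set by egg phenotype and not by a known allele. The question of the comparison was which genes differ between translucent and opaque hens.

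PTPRC encodes CD45, a phosphatase on the surface of white blood cells, and CD3E, CD4 and CD8A encode surface proteins of T cells. CSF1R is the receptor for the growth factors on which macrophages depend. At mucosal surfaces, plasma cells join IgA or IgM units with the J chain, encoded by JCHAIN, and the polymeric immunoglobulin receptor, encoded by PIGR, carries the joined antibody through the epithelial cell to the lumen. In laying hens, antibodies of these classes also reach the egg through the oviduct.

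The reads assigned to genes totalled 15245165 to 19014779 in translucent hens and 11601225 to 17309287 in opaque hens. Opaque-2 to Opaque-5 lay between 11601225 and 11746135, below every translucent hen. Read counts printed for single genes are not scaled for this depth. At these totals 3 reads, taken as the smallest level that can be read, equal 0.158 to 0.259 CPM, the count scaled to library size. This limit covers counting error only. It was taken from the totals alone, while the CPM values of the results are also scaled by TMM, as given under the processing. The tissue label was checked with the epithelial marker EPCAM, which averaged 908.7 FPKM in translucent and 976.2 FPKM in opaque hens, and with COL10A1, a membrane collagen of the isthmus, which averaged 27774 FPKM in translucent and 29653 FPKM in opaque hens. FPKM is the deposited level corrected for gene length and depth. These group means hide differences between hens. By hen, EPCAM lay between 945.2 and 2327 CPM. The summed level of shell gland and magnum markers was 1479 CPM in Translucent-1 and 933.5 CPM in Opaque-5. In the other 8 hens this sum lay between 316.5 and 703.7 CPM, so the tissue was not uniform in these markers. The sum mixes genes with different highest hens. OVALY was highest in Translucent-1, at 505.5 CPM, and CA2 in Opaque-5, at 865.3 CPM. CALB1 had the most reads in Opaque-4, with 128. On the first principal component, with 39.8% of the variance, Translucent-1 and Opaque-5 stood apart from the other 8 hens. The fold changes of the members and some other results, but not all, are also given without Translucent-1 and Opaque-5. On the second component, with 11.8% of the variance, Opaque-4 was highest at 40.3, followed by Translucent-3 at 22.4. The tissue was sequenced in bulk, so a lower level through fewer cells of a type cannot be told apart from less RNA per cell.

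The 7 genes differed widely in level, and JCHAIN and PIGR, the antibody transport genes, stood above all the leukocyte surface genes. By mean FPKM over the 10 hens the order was JCHAIN at 591.9, PIGR at 70.4, CD3E at 9.05, PTPRC at 4.64, CSF1R at 3.77, CD8A at 1.49 and CD4 at 0.861. JCHAIN ranked 99 and PIGR ranked 1074 among the 17617 rows, while CD4, the lowest of the 7, ranked 12009. Each gene of this order exceeded the next one in all 10 hens, except in 2 places. PTPRC exceeded CSF1R in 6 of 10 hens, with a ratio of FPKM between 0.739 and 1.88, so these neighbours did not differ beyond their spread. CD8A exceeded CD4 in 9 of 10 hens, and Translucent-5, with a ratio of 0.861, was the exception.

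**Figure D1:**
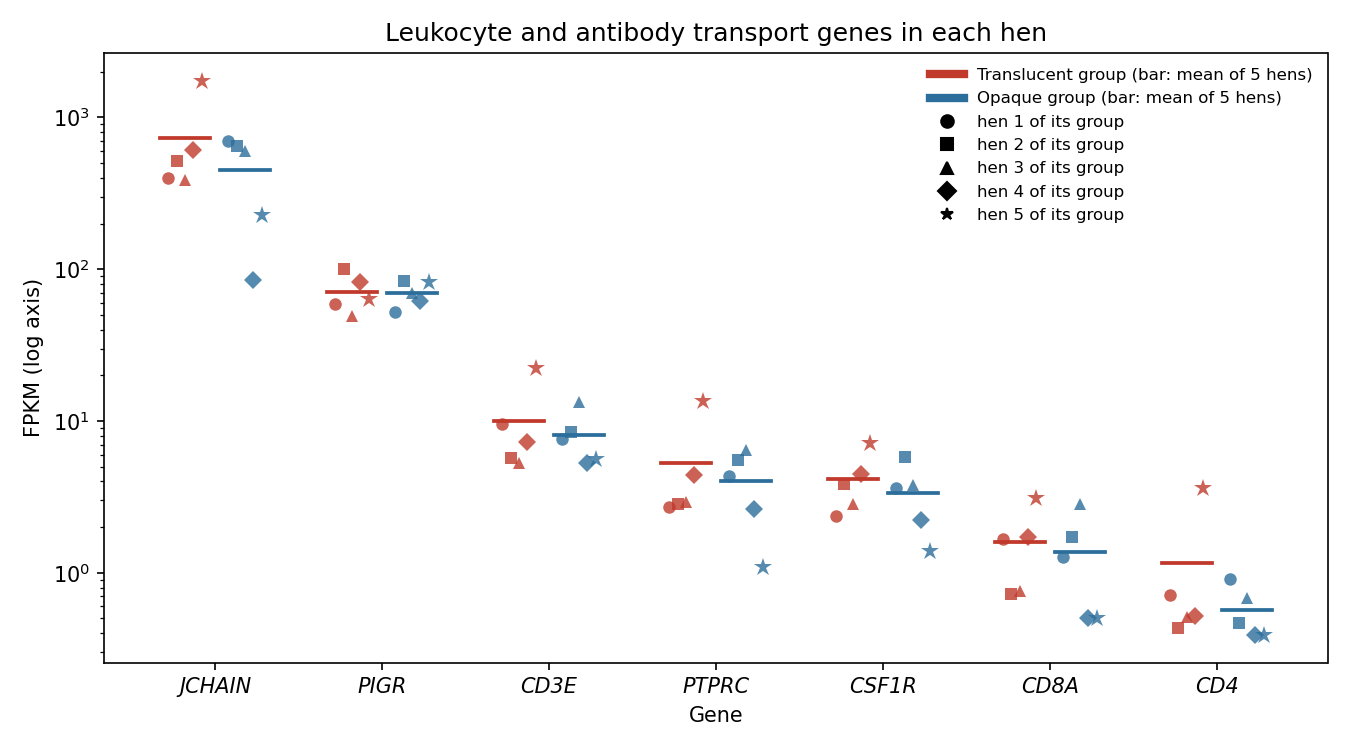
FPKM of the 7 genes (log axis) in each of the 5 translucent hens (red, left of each pair) and the 5 opaque hens (blue), with a bar at the group mean and a marker shape for each hen number. Translucent-5 is the highest of the 10 hens for every gene but PIGR, and the groups overlap for all 7 genes.

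JCHAIN was the most abundant of the genes and also one of the most variable between hens. In Translucent-1 to Translucent-5 it had 400.3, 518.9, 387.1, 605.8 and 1746 FPKM, against 702.4, 643.4, 601.3, 85.1 and 228.5 FPKM in Opaque-1 to Opaque-5. Translucent-5 was the highest hen and Opaque-4 the lowest, 20.5-fold apart, and the other 8 hens of both groups lay between 228.5 and 702.4 FPKM. JCHAIN averaged 731.6 ± 573.9 FPKM in the translucent group and 452.2 ± 276.7 FPKM in the opaque group (SD, n = 5 each). The log2 fold change of JCHAIN from its counts was 0.70 (SE 0.53). In the quasi-likelihood test of edgeR, with p-values adjusted over all 12858 genes tested by the method of Benjamini and Hochberg, its adjusted p was 0.9999.

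PIGR was the steadiest of the 7 genes. It had 58.8, 100.05, 49.0, 82.6 and 63.8 FPKM in Translucent-1 to Translucent-5, against 52.6, 83.8, 69.8, 62.1 and 81.8 FPKM in Opaque-1 to Opaque-5. Its highest and lowest hens, Translucent-2 and Translucent-3, belonged to the same group and were 2.04-fold apart. The group means were 70.8 ± 20.4 FPKM in translucent and 70.0 ± 13.2 FPKM in opaque hens (SD, n = 5 each). These means lay closer together than either SD, and the log2 fold change of PIGR was 0.00 with an SE of 0.22. JCHAIN exceeded PIGR in all 10 hens, and the ratio of their FPKM lay between 1.37 in Opaque-4 and 27.4 in Translucent-5, with a median of 7.51.

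PTPRC, which marks nearly all white blood cells, had 2.72, 2.86, 2.93, 4.43 and 13.5 FPKM in Translucent-1 to Translucent-5. The opaque hens had 4.33, 5.51, 6.43, 2.63 and 1.09 FPKM. Of the translucent hens only Translucent-5 was above the highest opaque hen, while the other 4 lay within the opaque range. The group means were 5.29 ± 4.65 FPKM in translucent and 3.998 ± 2.16 FPKM in opaque hens (SD, n = 5 each), and PTPRC had a log2 fold change of 0.42 (SE 0.50). Without Translucent-5 it was -0.23, which is the opposite direction.

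Among the T cell genes CD3E, a part of the T cell receptor complex, was the most abundant. It had 9.56, 5.70, 5.26, 7.23 and 22.4 FPKM in Translucent-1 to Translucent-5, against 7.61, 8.48, 13.4, 5.27 and 5.66 FPKM in Opaque-1 to Opaque-5. Only Translucent-5 was above all opaque hens, and Opaque-3 came next. The log2 fold change of CD3E was 0.32 (SE 0.39).

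CD8A, the alpha chain of the co-receptor of cytotoxic T cells, had 46, 17, 16, 45 and 80 reads in the translucent hens, against 35, 32, 52, 8 and 8 reads in the opaque hens. These were 1.66, 0.73, 0.76, 1.73 and 3.10 FPKM in the translucent hens and 1.28, 1.73, 2.86, 0.50 and 0.50 FPKM in the opaque hens. Opaque-4 and Opaque-5 were the lowest hens, and Opaque-3 was close to Translucent-5. The log2 fold change of CD8A was 0.23 (SE 0.55), and it was -0.14 without Translucent-5. The table also holds 8 rows described as CD8 alpha chain-like, with summed counts of 22, 8.33, 2, 11.4 and 37.6 in the translucent hens and 10, 13, 8, 1 and 1 in the opaque hens. Reads that fit more than 1 of these related rows could have been shared between them by RSEM, so the level of CD8A is less certain than that of the other members, although its own counts were whole numbers in all hens.

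CD4, the co-receptor of helper T cells, was the least abundant of the genes. It had 29, 15, 18, 23 and 125 reads in Translucent-1 to Translucent-5, against 36, 11, 16, 10 and 9 reads in the opaque hens. In FPKM the translucent hens had 0.71, 0.43, 0.51, 0.52 and 3.60, and the opaque hens 0.91, 0.47, 0.68, 0.39 and 0.39. Apart from Translucent-5 the hens lay between 0.39 and 0.91 FPKM in no order by group. CD4 had the largest log2 fold change of the 7, 1.04 (SE 0.58, unadjusted p = 0.0973 and adjusted p = 0.9999 with edgeR), and it was 0.11 without Translucent-5. DESeq2 gave a log2 fold change of 1.05 for CD4 and no p-value.

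CSF1R, the macrophage gene, had 2.36, 3.87, 2.85, 4.51 and 7.20 FPKM in Translucent-1 to Translucent-5. The opaque hens had 3.63, 5.83, 3.78, 2.23 and 1.40 FPKM. Translucent-5 and Opaque-2 were the highest hens and Opaque-5 the lowest. CSF1R averaged 4.16 ± 1.90 FPKM in translucent and 3.37 ± 1.69 FPKM in opaque hens (SD, n = 5 each), with a log2 fold change of 0.31 (SE 0.34).

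None of the 7 genes differed between translucent and opaque hens beyond the spread between hens. With edgeR's quasi-likelihood test, 0 of 7 were called at an adjusted p under 0.05 with a log2 fold change beyond 1 in size, and among all 12858 genes tested 0 were called, which is 0.0%. An unadjusted p under 0.05 was found for 0 of the 7, against 2.19% of all genes tested. DESeq2, which gave no p for CD4, called 0 of the other 6, and 4 of 16273 genes, or 0.0246%. Its unadjusted p was under 0.05 for 0 of the 6 members for which it gave one, against 2.56% of all genes. The groups did not overlap for 0 of the 7 genes, against 0.443% of all genes. Permuting the group labels of the 10 hens in every possible way, an exact two-sided test whose smallest p is 0.0079, gave for log2 CPM a p between 0.31 for CD4 and JCHAIN and 1.0 for PIGR.

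The fold changes of the leukocyte genes and JCHAIN depended on a few hens, Translucent-5 most of all. Translucent-5 ranked first of the 10 hens in CPM for PTPRC, CD3E, CD4, CD8A, CSF1R and JCHAIN, and eighth for PIGR. It exceeded the next hen 3.71-fold for CD4, 2.51-fold for JCHAIN, 2.11-fold for PTPRC, 1.66-fold for CD3E, 1.18-fold for CSF1R and 1.09-fold for CD8A. At the other end, Opaque-4 was the lowest hen in CPM for JCHAIN, CD4 and CD8A, and Opaque-5 was the lowest for PTPRC and CSF1R. CD3E was lowest in Translucent-3.

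**Figure D2:**
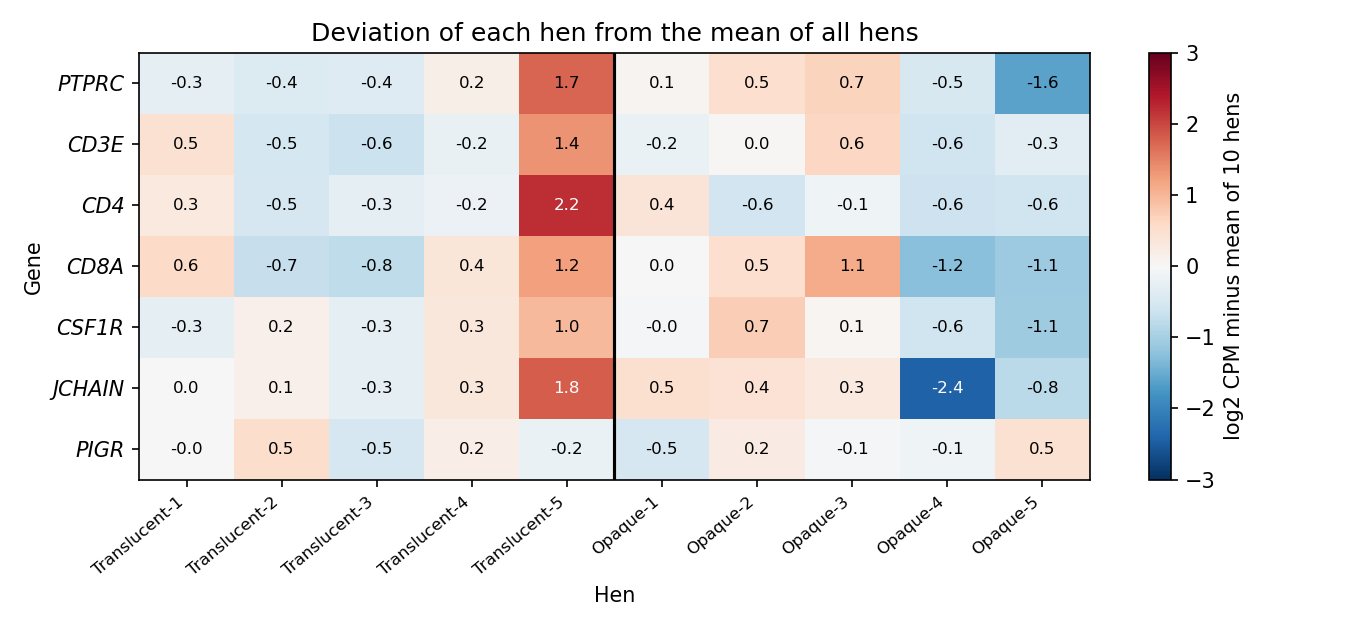
Deviation of each hen (columns, translucent hens on the left) from the mean of the 10 hens for each gene (rows), as log2 CPM on a color scale, with the value in each cell. Translucent-5 lies above the mean for 6 genes and below it for PIGR, and Opaque-4 and Opaque-5 lie below it for the same 6 genes.

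Without Translucent-5 the log2 fold changes were -0.23 for PTPRC, -0.14 for CD3E, 0.11 for CD4, -0.14 for CD8A, 0.057 for CSF1R, 0.15 for JCHAIN and 0.061 for PIGR. Thus 3 of the 6 genes other than PIGR turned negative and 3 stayed positive at a lower value. Leaving out an opaque hen also lowered some of them. Without Opaque-5 the log2 fold change was 0.20 for PTPRC, 0.15 for CSF1R and 0.033 for CD8A, and without Opaque-4 it was 0.22 for CD3E, 0.45 for JCHAIN and 0.016 for CD8A. Without Translucent-1 and Opaque-5, the hens that stood apart on the first principal component, they lay between -0.040 for CD8A and 1.04 for CD4. With only the 6 hens numbered 1 to 3, which leaves out the hens numbered 4 and 5 of both groups, all 6 genes other than PIGR had a negative fold change. The hens numbered 1 to 3 are also the only ones for which the study lists sequencing quality. In these 6 hens PTPRC had a log2 fold change of -0.78 (SE 0.20) and JCHAIN one of -0.43 (SE 0.16), both with an unadjusted p under 0.05 and an adjusted p of 0.619 with edgeR.

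**Figure D3:**
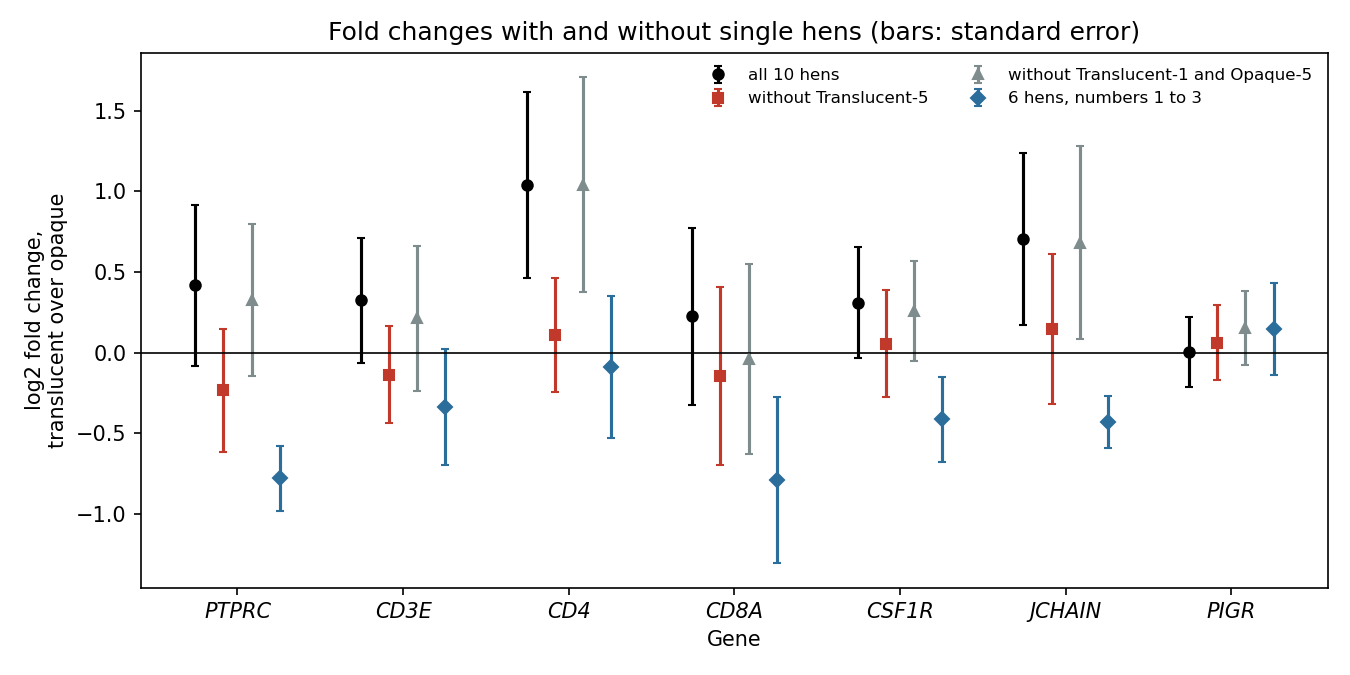
Log2 fold change of translucent over opaque hens from edgeR for each gene (points, bars are the standard error), with all 10 hens, without Translucent-5, without Translucent-1 and Opaque-5, and with the 6 hens numbered 1 to 3. PTPRC lies at 0.42 with all hens, at -0.23 without Translucent-5 and at -0.78 with 6 hens, while PIGR stays between 0.00 and 0.15.

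Markers of other cell types also moved across the hens. Of 10 epithelial markers listed 8 were found, and their summed level lay between 2436 and 4437 CPM in translucent hens and between 2507 and 4939 CPM in opaque hens, with the lowest sum in Translucent-5 and the highest in Opaque-5. Of 10 erythroid markers, which stand for red blood cells, 8 were found. Their summed level lay between 80.2 and 213.6 CPM in translucent and between 97.0 and 193.9 CPM in opaque hens. This sum was also highest in Translucent-5. It includes SLC4A1, which averaged 13.9 CPM in translucent and 42.7 CPM in opaque hens. The other 4 erythroid markers tested had positive log2 fold changes, so the sum mixes both directions. HBBA, a beta globin gene, had 148.2 FPKM in Translucent-5 and between 36.9 and 119.8 FPKM in the other translucent hens, against 38.2 to 91.0 FPKM in opaque hens. Of 8 endothelial markers 7 were found, and their summed level lay between 334.5 and 590.0 CPM in translucent and between 319.8 and 617.3 CPM in opaque hens, with the lowest sum in Opaque-5. Of these lists 1 erythroid row was at 0 in all hens and no epithelial or endothelial row was. Over the 10 hens, Pearson's r of log2 CPM was taken between single markers and the members, as a description with no p. For the epithelial marker EPCAM it was -0.87 with CSF1R, -0.82 with PTPRC, -0.38 with CD3E and 0.26 with PIGR. The other members lay between -0.87 and -0.38. For HBBA it lay between 0.41 with CD3E and 0.79 with CSF1R, but was -0.09 with PIGR. The part of these markers in the levels of the leukocyte genes was not tested.

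The proportions among the genes were compared through ratios within each hen, 5 of them to PTPRC and 1 between the T cell co-receptors. The log2 ratio of CSF1R to PTPRC in CPM averaged -0.37 ± 0.49 in translucent and -0.39 ± 0.42 in opaque hens, a difference of 0.02. That of JCHAIN to PTPRC averaged 5.69 ± 0.19 in translucent and 5.21 ± 1.05 in opaque hens (SD, n = 5 each), and the wider spread of the opaque group came with Opaque-4 at 3.52. The translucent hens lay between 5.53 and 5.998. The log2 ratio of CD4 to CD8A averaged -0.18 ± 0.61 in translucent and -0.51 ± 0.92 in opaque hens. Over the 6 ratios examined the exact two-sided permutation p was between 0.44 and 0.94, with adjusted p between 0.93 and 0.94, so 0 of 6 differed beyond the spread between hens.

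Of the 15 pairs among the leukocyte genes and JCHAIN, 6 varied together from hen to hen within the groups by the test of r, and 0 of the 6 pairs with PIGR did. The share of such pairs among all genes was not computed, so this count does not set the members apart from other genes. For the 21 pairs of genes, the deviations of log2 CPM from the group means were correlated, and p was taken from an exact permutation test over the 14400 orders within groups and adjusted over the 21 pairs. The 15 pairs without PIGR had Pearson's r between 0.49 and 0.90, with an adjusted p under 0.05 for 6 pairs by r and for 4 by Spearman's rho. CD3E and CD8A, both T cell genes, had r of 0.87 (p = 6.94e-05, adjusted p = 0.00146, permutation test) and rho of 0.82 (p = 0.000556, adjusted p = 0.0117, permutation test). Without Translucent-5 and Opaque-3, the hens farthest from the median of CD3E, their r was 0.82.

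PTPRC and CSF1R had r of 0.90 (p = 0.00181, adjusted p = 0.0190) and rho of 0.87 (p = 0.00299, adjusted p = 0.0233), and r was 0.75 without Translucent-5 and Opaque-5. PTPRC and CD8A had r of 0.84 (p = 0.00299, adjusted p = 0.0209) and rho of 0.78 (p = 0.00896, adjusted p = 0.0470), and r was 0.89 without these 2 hens. JCHAIN and CD8A had r of 0.80 (p = 0.00667, adjusted p = 0.0350) and rho of 0.77 (p = 0.0257, adjusted p = 0.0510), and r was 0.67 without Opaque-4 and Opaque-5. PTPRC and CD3E had r of 0.76 (p = 0.0125, adjusted p = 0.0438) and rho of 0.72 (p = 0.0225, adjusted p = 0.0510), and r was 0.67 without Translucent-5 and Opaque-5. CD3E and JCHAIN had r of 0.69 (p = 0.0105, adjusted p = 0.0438) and rho of 0.68 (p = 0.0282, adjusted p = 0.0510), and r was 0.46 without Translucent-5 and Opaque-3, so this relation rested in part on these hens. The relation of PTPRC with CD4 rested on single hens, since its r of 0.73 was 0.18 without Translucent-5 and Opaque-5. That of CD4 with CSF1R went to -0.00 without Translucent-5 and Opaque-1. The 6 pairs with PIGR had r between -0.45 and -0.07 with a smallest adjusted p of 0.332. Without the 2 farthest hens 4 of them turned positive, with r of 0.58 for CSF1R, 0.28 for PTPRC, 0.12 for CD3E and 0.037 for CD8A, so no direction can be given for the relations of PIGR. Without Translucent-1 and Opaque-5 the number of pairs with an adjusted p under 0.05 was 3 in place of 6.

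**Figure D4:**
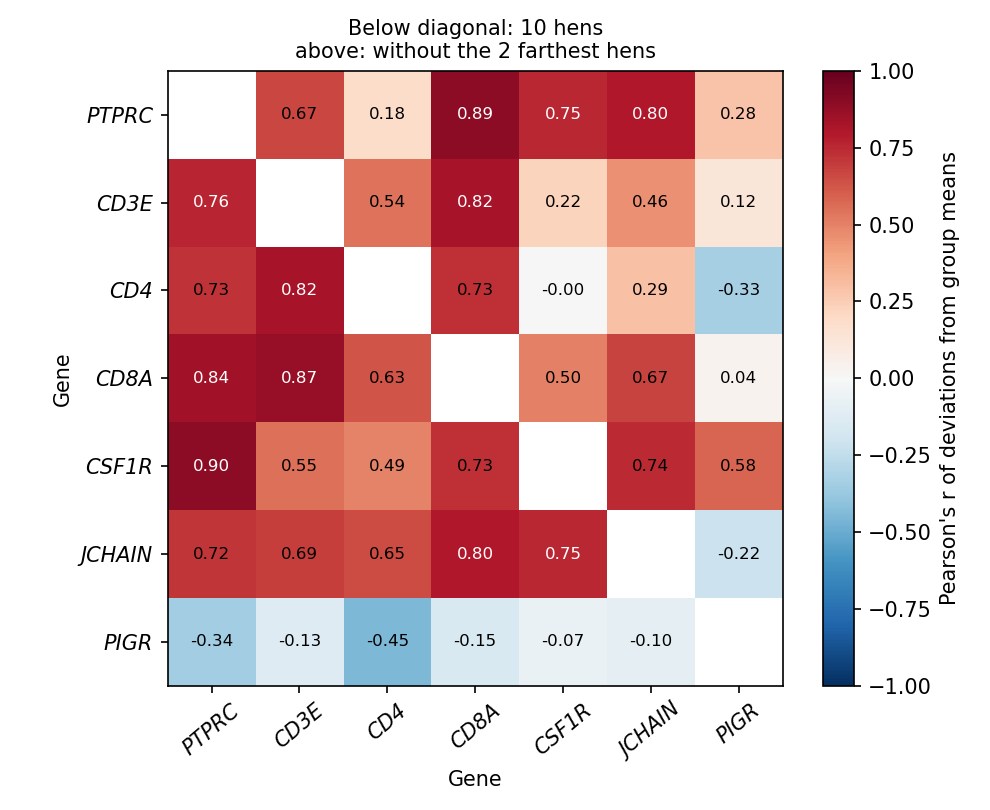
Pearson's r between the genes over the hens, from the deviations of log2 CPM from the group means, on a color scale from -1 to 1. Below the diagonal, with all 10 hens, the PIGR pairs lie between -0.45 and -0.07 and the other pairs between 0.49 and 0.90, and above it, without the 2 hens farthest from the median of the first gene, the PIGR pairs lie between -0.33 and 0.58 and the other pairs between -0.0015 and 0.89.

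Among all genes tested, those most like each member over the 10 hens, by Pearson's r of log2 CPM, are given as a description. For PTPRC they were RUNX3 (r = 0.98) and IKZF1 (r = 0.97), both transcription factors of blood cells, and CYSLTR2 (r = 0.97), a leukotriene receptor. For CD3E they were the unnamed locus MSTRG.7678 (r = 0.96), ZAP70 (r = 0.94), the kinase that relays the T cell receptor signal, and ARHGAP45 (r = 0.94). For CD8A they were PTPN7 (r = 0.95), CD200R1 (r = 0.95) and MADCAM1 (r = 0.94), which in mammals is a vessel protein that guides lymphocytes to mucosa. For CD4 they were CD48 (r = 0.94), LIPA (r = 0.93) and ENSGALG00000014754 (r = 0.90).

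For CSF1R the most alike genes were FBXO32, MSN and H6PD (r = 0.97 each), and 85 genes had an r of at least 0.9 with it. For JCHAIN they were BLVRA (r = 0.94), PTPN22 (r = 0.93) and WARS2 (r = 0.93). For PIGR the nearest were ENSGALG00000052981 (r = 0.86), BPHL (r = 0.84) and XRCC4 (r = 0.84), and 0 genes reached an r of 0.9. PTPRC had 67 such genes, CD8A and JCHAIN 17 each, CD3E 12 and CD4 3, of 12857 genes compared with each member. No member reached an r of 0.9 with another member. The highest r between members was 0.897, for PTPRC with CSF1R. Among the members other than PIGR the lowest was 0.55, for CD4 with CSF1R. Thus the genes most alike to each member were not other members. These values share the libraries and include the group difference.

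Of 155 other listed genes tested, edgeR called 0 and gave an unadjusted p under 0.05 for 4, which is 2.58% against 2.19% of all genes. DESeq2 called 2 of 193, which is 1.04% against 0.0246% of all genes. These were SLC4A1 of the erythroid and CALB1 of the shell gland and magnum markers. The study itself named both genes as lower in translucent hens in its RNA data. In its protein data, however, it reports SLC4A1 as higher in translucent hens. The lists were chosen with earlier results of these data known, so the DESeq2 share is not an independent comparison. Of 13 other pan-leukocyte genes tested, all 13 had a positive log2 fold change with a median of 0.50, against a median of -0.01 over all genes tested. LCP1, an actin-bundling protein of leukocytes, averaged 8.81 ± 7.02 FPKM in translucent and 6.27 ± 2.84 FPKM in opaque hens (SD, n = 5 each). PTPN6, a phosphatase that epithelial cells also express, averaged 33.7 ± 4.07 FPKM in translucent and 33.3 ± 4.15 FPKM in opaque hens (SD, n = 5 each). The median of this list was 0.048 without Translucent-5 and -0.32 in the 6 hens numbered 1 to 3. Translucent-5 was the highest hen for 11 of the 13 genes (84.6%), against 13.9% of all genes tested. Opaque-4 or Opaque-5 was the lowest hen for 11 of them (84.6%), against 31.1% of all genes tested. Translucent-5 was the highest hen for 9 of 12 T cell, 3 of 6 cytotoxic, 8 of 12 B and plasma cell and 14 of 20 macrophage, dendritic cell and granulocyte genes, and Opaque-4 or Opaque-5 the lowest for 8, 3, 7 and 10 of them.

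Of 12 other T cell genes, 10 had a positive and 2 a negative log2 fold change, with a median of 0.40 that was 0.01 without Translucent-5. CD3D, the partner of CD3E in the receptor complex, had 7.51, 5.24, 5.32, 10.2 and 31.5 FPKM in Translucent-1 to Translucent-5, against 7.53, 6.84, 15.3, 3.01 and 3.80 FPKM in Opaque-1 to Opaque-5. Its order of hens was led by Translucent-5 and Opaque-3, as for CD3E. CD247, the zeta chain of the same complex, averaged 2.37 ± 1.08 FPKM in translucent and 1.31 ± 0.650 FPKM in opaque hens, with a log2 fold change of 0.89 (SE 0.38) and, from edgeR, an unadjusted p of 0.0383 and an adjusted p of 0.9999. With each hen left out, its unadjusted p lay between 0.0222 and 0.116, the highest without Translucent-5. The unadjusted p of CD247 from edgeR was 0.136 without Translucent-1 and Opaque-5. In the 6 hens numbered 1 to 3 it was 0.381, with a log2 fold change of 0.44. UBASH3A, a regulator of T cell receptor signals in mammals, averaged 12.9 ± 9.06 FPKM in translucent and 17.5 ± 5.46 FPKM in opaque hens (SD, n = 5 each), with 222 reads in Translucent-1 and 3521 in Translucent-2, and its r with CD3E over the 10 hens was -0.35. Among 6 genes of cytotoxic cells, 4 had a positive and 2 a negative fold change, and GZMA, a granule protease, averaged 2.20 ± 1.70 FPKM in translucent and 1.28 ± 0.937 FPKM in opaque hens (SD, n = 5 each). GNLY was also higher in translucent hens, at 30.4 ± 21.8 against 18.1 ± 7.24 FPKM. TBX21 was lower, at 0.858 ± 0.681 against 1.21 ± 0.697 FPKM.

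Of 12 other B cell and plasma cell genes, 9 had a positive and 3 a negative log2 fold change, with a median of 0.19 that was -0.14 without Translucent-5. IGLL1, the row of the table that stands for an immunoglobulin light chain, had 6151, 4362, 2590, 5477 and 7245 reads in Translucent-1 to Translucent-5, against 4743, 1654, 2899, 387 and 1908 reads in the opaque hens. As for JCHAIN, Translucent-5 was highest and Opaque-4 lowest. Its log2 fold change was 0.86 with an unadjusted p of 0.0689 from edgeR. These are RNA values, and in its protein data the study reports IGLL1 as more abundant in the opaque group. XBP1, a transcription factor of secretory cells, averaged 176.2 ± 35.5 FPKM in translucent and 171.1 ± 42.9 FPKM in opaque hens (SD, n = 5 each), and SDC1, which plasma cells and epithelial cells both carry, averaged 91.2 ± 32.3 FPKM in translucent and 142.5 ± 94.3 FPKM in opaque hens.

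Of 20 other genes of macrophages, dendritic cells and granulocytes, 17 had a positive and 3 a negative log2 fold change, with a median of 0.40 that was 0.06 without Translucent-5. LYZ, the lysozyme gene that the oviduct epithelium of the hen also expresses, averaged 687.9 ± 355.8 FPKM in translucent and 502.0 ± 205.3 FPKM in opaque hens (SD, n = 5 each). CTSS, a protease of antigen-presenting cells, averaged 44.1 ± 16.3 FPKM in translucent and 46.4 ± 8.91 FPKM in opaque hens (SD, n = 5 each). Of 18 genes of leukocyte homing and survival, 14 had a positive and 4 a negative fold change, with a median of 0.28 that was 0.03 without Translucent-5. IL15, a growth factor of T and NK cells, averaged 10.3 FPKM in translucent and 9.80 FPKM in opaque hens. CDH1 and TGFB1, the more abundant genes of this list, were lower in translucent hens. CDH1 averaged 132.3 against 151.4 FPKM, and TGFB1 11.2 against 13.7 FPKM.

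The fold changes of genes that act with PIGR were centered near 0. Of 17 other genes of antibody transport and epithelial trafficking, 9 had a positive and 8 a negative log2 fold change, with a median of 0.01 both with and without Translucent-5. RAB11A, a GTPase of recycling endosomes, averaged 103.0 ± 3.81 FPKM in translucent and 98.7 ± 12.3 FPKM in opaque hens (SD, n = 5 each). EXOC4, a subunit of the exocyst that tethers vesicles, averaged 24.0 ± 4.07 FPKM in translucent and 29.8 ± 6.53 FPKM in opaque hens, with a log2 fold change of -0.30 (SE 0.13) and, from edgeR, an unadjusted p of 0.0405 and an adjusted p of 0.9999. With each hen left out, its unadjusted p lay between 0.0190 and 0.104, the highest without Opaque-3. Of 17 genes that regulate PIGR in mammals, 7 had a positive and 10 a negative fold change, with a median of -0.03. NFKB1, a transcription factor of inflammatory signals, averaged 45.1 ± 3.97 FPKM in translucent and 44.8 ± 6.77 FPKM in opaque hens (SD, n = 5 each). Translucent-5 was the highest hen for 2 of the 17 transport genes (11.8%) and 3 of the 17 regulators (17.6%), near the 13.9% of all genes tested.

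**Figure D5:**
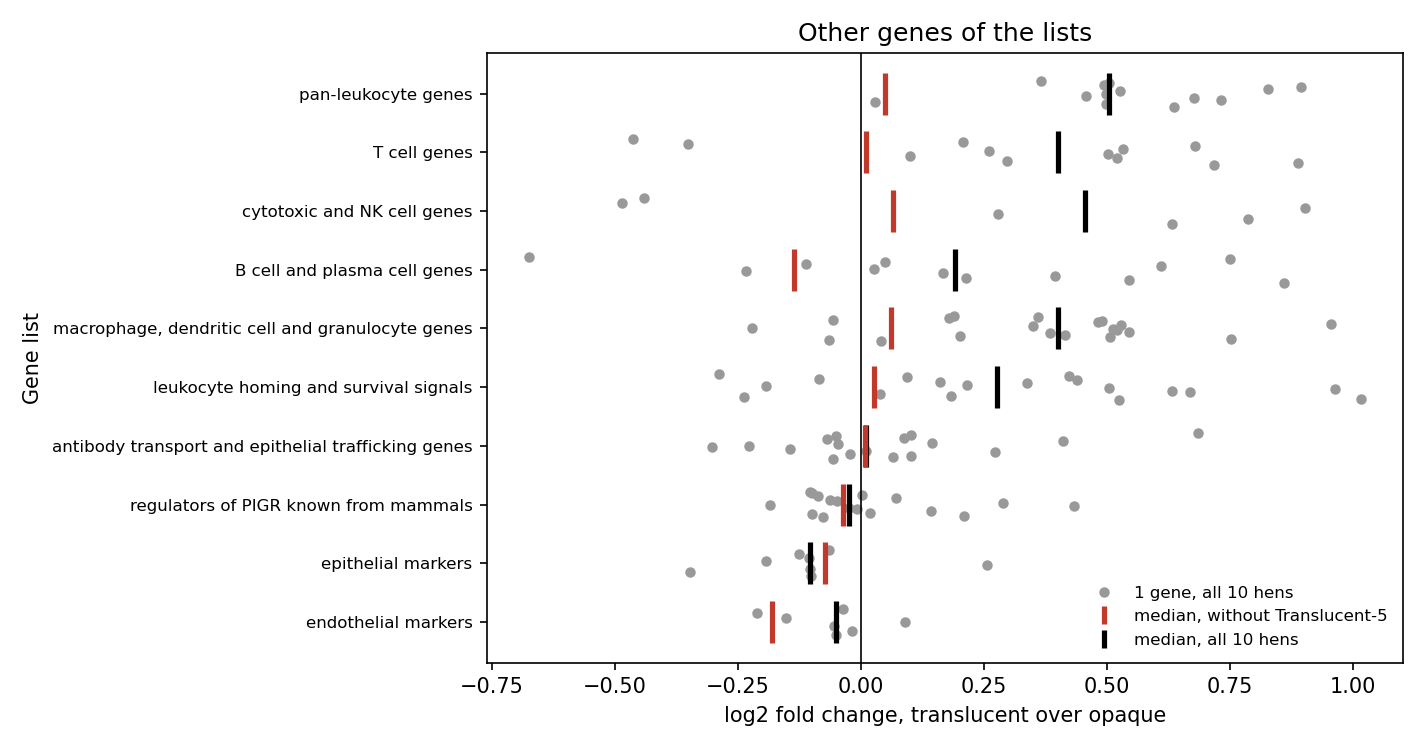
Log2 fold change of translucent over opaque hens for the other tested genes of 10 lists (gray points, 1 for each gene, all 10 hens), with the median of each list over all 10 hens (black) and without Translucent-5 (red). The median of the pan-leukocyte list is 0.50 with all hens and 0.048 without Translucent-5, while that of the transport genes is 0.01 in both.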

How the data were processed

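RNA of white isthmus tissue from 5 translucent and 5 opaque hens was sequenced by the authors on an Illumina NovaSeq X Plus. The authors used fastp for read quality, Bowtie2 against rRNA, HISAT2 for alignment, StringTie for transcripts and RSEM for gene levels. They deposited estimated read counts, not normalized, and FPKM values corrected for gene length and depth, for each gene and hen. The genome build is not given in the sources used here, and no coordinates or sequences were used. Strand use in counting is not stated.

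The expected counts, of which 6.73% were fractional in the deposited table, were rounded. Counts were scaled by TMM (factors 0.855 to 1.085), filtered by filterByExpr and tested with the quasi-likelihood test of edgeR 4.0.16 in R 4.3.3, with adjustment over 12858 genes. Calls needed an adjusted p under 0.05 and a log2 fold change beyond 1 in size. All 7 members with reads passed the filter. The SE printed with an edgeR log2 fold change is the one implied by its test statistic. It describes the fold change and not the spread between hens. CPM is TMM-scaled, with a prior count of 2 for log2 CPM. Replicates are separate hens. Alternatives were DESeq2 1.42.0, limma 3.58.1 on log2 FPKM (pseudocount 1 or 0.1), other scalings and filters, thinned counts, other sets of hens and the replicate number as a block. Ratios were also taken with prior counts of 0.5 and 5 and from FPKM. A simulation shifted 200 of 12858 genes by 2 on the log2 scale. Of these, 197 were recovered by edgeR, 198 by DESeq2 and 190 by limma, and the genes called wrongly numbered 6, 9 and 4. Smaller changes were not simulated, and every gene was given the same dispersion, the setting for its spread between hens. This recovery does not give the power for the members, whose log2 fold changes with all hens were at most 1.04 (SE 0.22 to 0.58).

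Named genes are the members, the 3 most abundant other genes of a list, listed genes with an unadjusted p under 0.05, and the 3 genes most alike to each member. Not all of these are described. Of 237 listed symbols 202 were found, 12 of them by RefSeq name. Members and lists were chosen with earlier results of these data known. Plots used Python 3.11.15 with matplotlib 3.10.9.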

Additional observations from a re-analysis of the deposited data

Results flagged for a closer look

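In each group of 5 hens, the highest and lowest hen of 26 sets of values (levels and ratios of the members) were compared with their nearest neighbor by Dixon's criterion, which chance alone meets in about 1 of 20 sets. It was met 3 times. Translucent-5 had a log2 CPM of 6.001 for PTPRC, far above the other translucent hens. Translucent-1 had a log2 ratio of CD3E to PTPRC of 0.42, far above the other translucent hens, and Opaque-5 had a log2 ratio of CD3E to PTPRC of 0.97, far above the other opaque hens. Translucent-1 and Opaque-5 are also the hens that stood apart on the first principal component.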

How the results depend on the processing

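Over all genes, 0 were called by edgeR and under all alternatives except DESeq2, which called 4, of which 2, SLC4A1 and CALB1, were listed genes. The study also used DESeq2 and reports far more differing genes than were called here. It names its limit of 0.05 both as an FDR and as a p-value. Why the numbers differ was not tested. CALB1 did not pass the filter of the main edgeR fit and had the most reads in Opaque-4 and Opaque-5. It had 3, 1, 3, 2 and 8 reads in Translucent-1 to Translucent-5, against 2, 19, 8, 128 and 67 in Opaque-1 to Opaque-5. Genes with an unadjusted p under 0.05 numbered 282, and 434 with no low-count filter, 990 in the 6 hens numbered 1 to 3, 514 without Translucent-1 and Opaque-5, 483 with limma on unfiltered log2(FPKM + 1), and 234 to 508 when each hen was left out, the highest without Opaque-5. Members with an unadjusted p under 0.05 numbered 0, and 2 in the 6 hens. Other listed genes with such a p numbered 4, and 8 with DESeq2, 2 with library size alone, 20 in the 6 hens, 8 without Translucent-1 and Opaque-5, and 4 to 10 when each hen was left out, the highest without Translucent-1. The number of related pairs of genes, 6, was 3 without Translucent-1 and Opaque-5, 12 on log2(FPKM + 0.1) and 13 with library size alone. The cause of these shifts was not tested.

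The log2 fold changes turned negative in the 6 hens for PTPRC (-0.78), CD3E (-0.34), CD4 (-0.089), CD8A (-0.79), CSF1R (-0.41) and JCHAIN (-0.43), and for CD8A (-0.040) without Translucent-1 and Opaque-5. When each hen was left out they ranged from -0.23 to 0.63 for PTPRC, -0.14 to 0.55 for CD3E, -0.14 to 0.65 for CD8A and -0.14 to 0.14 for PIGR, with the negative values of the first 3 found only without Translucent-5. PIGR, at 0.00, was at -0.0014 with thinned counts, -0.0084 with limma on log2(FPKM + 1), filtered or not, and -0.0088 on log2(FPKM + 0.1). With each hen left out, the ratio differences ranged from -0.36 to 0.14 for CD3E to PTPRC, -0.26 to 0.071 for CD8A to PTPRC, -0.13 to 0.21 for CSF1R to PTPRC, 0.049 to 0.57 for CD4 to PTPRC, 0.046 to 0.72 for JCHAIN to PTPRC and 0.058 to 0.53 for CD4 to CD8A. Relations of PIGR changed sign without Translucent-1 and Opaque-5 with CD8A (r = 0.041) and CSF1R (r = 0.31), on log2(FPKM + 0.1) with CSF1R (r = 0.15) and JCHAIN (r = 0.061), and with library size alone with CSF1R (r = 0.15) and JCHAIN (r = 0.062).

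The replicate numbers mark different hens, and same-numbered hens did not deviate together (mean r of -0.13 over 5 pairs, from -0.42 to 0.10). With the replicate number as a block, 0 genes were called and 162 had an unadjusted p under 0.05, and the 7 members kept their direction. For genes as low as CD4, with 9 to 125 reads per hen, depth limits the precision.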

Other observations

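The following rows, related to the members but not selected by symbol, are given as values. Their reads are not scaled for depth, which was lower in Opaque-2 to Opaque-5 than in any translucent hen. FCMAR, described as a receptor related to the polymeric immunoglobulin receptor, had 0, 0, 0, 1 and 18 reads in Translucent-1 to Translucent-5, against 2, 1, 0, 0 and 0 reads in the opaque hens. A row described as an Ig heavy chain of the Mem5-like type had 61, 17, 8, 33 and 110 reads in Translucent-1 to Translucent-5, against 18, 13, 43, 4 and 7 reads in the opaque hens. CD8BP, a pseudogene of the CD8 beta chain, had 16, 5, 1, 10 and 29 reads in the translucent hens, against 4, 4, 8, 3 and 0 reads in the opaque hens. In these 3 rows Translucent-5 had the most reads, but not in others. The row MSTRG.12176, described as the protein associated with the PTPRC product, had 61, 29, 32, 49 and 54 reads in the translucent hens, against 29, 16, 23, 17 and 30 reads in the opaque hens. A row described as an Ig lambda chain had 13, 22, 9, 34 and 7 reads in the translucent hens, against 21, 2, 6, 6 and 44 reads in the opaque hens. These rows were chosen after their values were seen.

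Of the genes listed for other cells and oviduct segments, 1 erythroid and 1 magnum gene had an unadjusted p under 0.05 from edgeR, with an adjusted p of 0.9999. SLC4A1, the anion exchanger of red blood cells, averaged 3.62 ± 1.44 FPKM in translucent and 11.3 ± 4.72 FPKM in opaque hens (SD, n = 5 each). Its log2 fold change was -1.62, and it was called by DESeq2. The other 4 erythroid markers tested had positive log2 fold changes, between 0.34 for TAL1 and 0.48 for HBA1, with 0 of them at an unadjusted p under 0.05. OVALY, an egg white protein gene of the ovalbumin family, averaged 58.0 ± 92.4 FPKM in translucent and 2.14 ± 2.76 FPKM in opaque hens (SD, n = 5 each). The log2 fold change of OVALY was 4.94, and 2.997 without Translucent-1, which held 8217 of its reads.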
